A study of Mus musculus with 12 samples.

Results

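The genes described here are the ligand interferon gamma (Ifng), its receptor chains Ifngr1 and Ifngr2, the receptor-bound kinases Jak1 and Jak2, and the target genes Irf1 and Socs1. These 7 genes were taken by symbol from a count table of 23282 lines, and all 7 were among the 13464 genes with enough counts to be tested. The table covers 12 subcutaneous MC38 tumors in 4 groups of 3, named Con, SFIH, PD and Comb. The MC38 line was derived from a colon carcinoma of a mouse, and its cells had been injected into the flank of wild-type female C57BL/6 mice. The paper states that the mice were bought at 6 weeks of age and acclimated before use. SFIH is the hexane fraction of Inula helenium root, rich in the sesquiterpene lactones alantolactone and isoalantolactone.

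Con mice received vehicle (saline with DMSO and Tween) and an IgG2a antibody. SFIH mice received the fraction at 50 mg/kg each day, together with IgG2a. PD mice received anti-PD-1 antibody (clone RMP1-14) at 200 μg per injection, and Comb mice received both agents. All agents were given intraperitoneally, and all tumors were sampled on day 19. A single transplanted cell line makes up the model in every group. The labels call the material tumor cells, but RNA had been isolated from whole tumor tissue, and summed epithelial markers (Krt8, Epcam and others, 8 genes) were between 2.61 and 26.7 CPM (counts scaled to a common library size) in 11 tumors and at 161 CPM in Comb replicate 3. One of them, Cldn7, was at 0 in all Con tumors.

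Interferon gamma is secreted mainly by activated T cells and NK cells. It binds IFNGR1, and IFNGR2 joins the complex. JAK1 and JAK2, held by these chains, then pass the signal to the nucleus, where genes such as Irf1 are switched on through gamma-activated sites (GAS) in DNA. IRF1 is itself a transcription factor that acts through interferon-stimulated response elements (ISRE), and SOCS1 binds the kinases and damps the signal. In tumors the pathway is known for antigen presentation, for the recruitment of T cells and for its part in the response to PD-1 blockade.

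Promoters of the target genes are shown because they carry the letters through which the pathway is known to act. The GAS letters TTCNNNGAA and an ISRE core (GAAA, 2 free bases, GAAA) were searched on both strands in windows from 250 bases before to 50 bases after the annotated starts (RefSeq, GRCm38.p6). GAS letters were present in 8.3% of all 32851 windows and the ISRE core in 3.44%. The 150 bases before the first Irf1 start (chr11:53769864-53770013, plus strand) and before the Socs1 start (chr16:10785537-10785686, minus strand) read as follows, with the matches in capitals.
Irf1: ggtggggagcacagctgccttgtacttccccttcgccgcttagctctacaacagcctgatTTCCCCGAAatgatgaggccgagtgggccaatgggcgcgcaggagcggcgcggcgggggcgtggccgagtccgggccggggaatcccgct
Socs1: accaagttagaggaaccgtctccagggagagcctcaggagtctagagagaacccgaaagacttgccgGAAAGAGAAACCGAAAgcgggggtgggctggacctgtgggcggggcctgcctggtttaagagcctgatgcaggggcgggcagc

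The Irf1 match was a GAS sequence from position -90 to -82 relative to the start. Socs1 held 2 overlapping ISRE cores, from -83 to -74 and from -77 to -68. The window of Ifng held a GAS sequence from -249 to -241, upstream of the 150 bases nearest to its start. Neither set of letters was found in the windows of Ifngr1, Ifngr2, Jak1, Jak2 or the other Irf1 start, which says only that these letters are absent there. A match is a description of sequence and not a measured binding site.

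**Figure D1:**
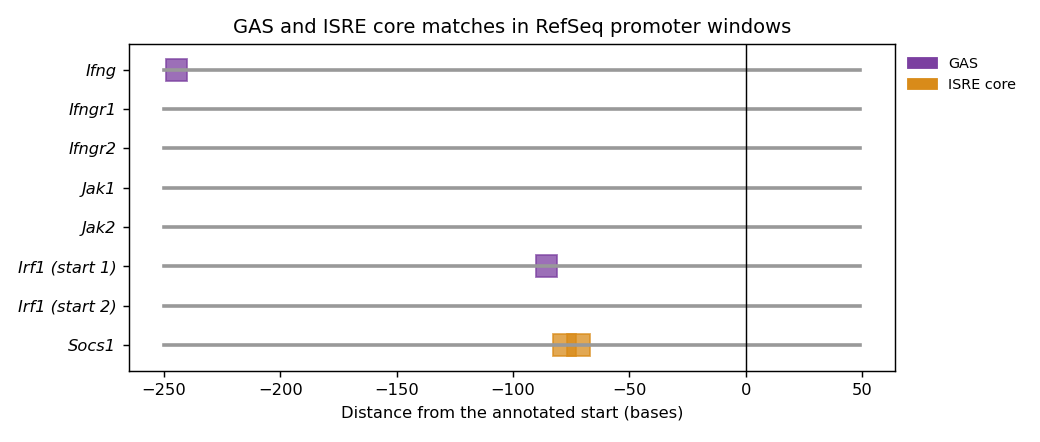
Positions of GAS (purple) and ISRE core (orange) matches in the promoter windows of the members, with distance from the annotated start in bases on the x axis. Irf1 start 1 and Socs1 carry matches between -90 and -68, and Ifng carries one at -249.

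Total counts were between 7870741 and 12261032 per tumor. Levels are CPM after TMM scaling of the library sizes, and log2(CPM + 1) where a log scale is named. The libraries were 3′ mRNA-Seq libraries, in which reads do not grow with gene length, so levels are set side by side between genes without division by length. How well each 3′ end was captured was not measured. Comb replicate 3 stood apart from the other tumors, with the lowest TMM factor (0.76) and high sums of muscle, fat, skin and macrophage markers. For each member, the fitted difference between Comb and Con is also given without Comb replicate 3. Comb replicate 2 was also high in fat markers (483 CPM, against 1312 in replicate 3 and 63.6 to 166 in the other tumors). The ribosomal RNA precursor Rn45s took 17.1% of the counts in PD replicate 2 and 14.1% in Comb replicate 2, which are among the 3 tumors highest in Ifng, and 4.28% to 10.3% in the other tumors, and its part in the results was not tested. Each group has 3 tumors, the labels do not say whether each came from its own mouse, and p-values measure the spread between these tumors.

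Ifng was the least abundant member and the one with the widest range, from 0.201 CPM (2 counts) in the lowest tumor to 11.1 CPM in the highest. In Con its level was 0.702, 0.201 and 1.25 CPM in replicates 1 to 3, from 8, 2 and 14 counts, and the second of these is at or under the floor of 3 counts. The SFIH tumors had 2.11, 0.52 and 1.15 CPM. The PD tumors had 1.82, 6 and 1.9 CPM, and the Comb tumors 1.36, 10.6 and 11.1 CPM. All PD and Comb tumors were above all Con tumors (without TMM scaling, Comb and Con overlapped), whereas the SFIH tumors overlapped with Con and Comb replicate 1 lay within the range of the SFIH tumors.

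For Ifng, the fitted log2 fold change from Con was 3.38 in Comb (SE 0.93, adjusted p = 0.0717, edgeR), 2.13 in PD (SE 0.91, adjusted p = 0.9998, edgeR) and 0.79 in SFIH (SE 0.9). Over the alternative settings it ranged from 1.35 to 2.77 in PD and from 0.17 to 1.43 in SFIH. DESeq2 gave an adjusted p of 0.00284 for Comb, so that this call depended on the tool. It also depended on Comb replicate 1: without that tumor the edgeR log2 fold change was 3.88 with an adjusted p of 0.00778. In that fit 3943 of 13856 genes passed. Without Comb replicate 3 the log2 fold change was 3.01 (adjusted p = 0.135, edgeR). Comb and PD differed by 1.25 (SE 0.84, adjusted p = 0.414, edgeR), a difference smaller than the range within either group. This difference was 1.76 without Comb replicate 1 and 0.89 without Comb replicate 3. In bulk tissue, fewer cells of a type and less RNA per cell cannot be told apart, which holds for each value here.

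Summed T and NK cell markers were highest in the Comb and PD tumors that were high in Ifng. The sum of 17 such markers (CD3 chains, Cd8a, Gzmb, Prf1 and others) was 64.9 to 98.3 CPM in Con tumors, 56.8 to 169 in SFIH tumors, 92.9 to 226 in PD tumors and 97.1 to 837 in Comb. Comb replicate 1 lay within the Con range. The markers did not all follow the sum. In Comb against Con 16 of the 17 had a log2 fold change above 0 (14 with an unadjusted p under 0.05, beside 25.3% of all genes, or 9 without Comb replicate 3, beside 18.8%), and in PD 13 did. Prf1, the pore-forming protein of killer cells, was at 4.12, 1.1 and 2.68 CPM in Con and at 1.65, 0.23 and 0 CPM in Comb (log2 fold change -2.01, SE 1, adjusted p = 0.232, edgeR). Gzmb, a protease of the same granules, gave 0.14 in Comb and -0.25 in PD (SE 0.59 each). Per 1000 CPM of these markers, Ifng was at 3.09 to 12.7 CPM in Con tumors, 7.36 to 20.2 in SFIH tumors, 17.2 to 26.5 in PD tumors and 13.2 to 38.3 in Comb. The ratio was therefore also higher in every PD and every Comb tumor than in every Con tumor (exact permutation test, two-sided p = 0.1 each, the smallest p that 3 tumors against 3 allow). For Comb the nearest pair was 13.2 in Comb replicate 3 and 12.7 in Con replicate 3. The lowest Con ratio, 3.09 in replicate 2, came from 2 counts of Ifng. The share of all genes that separate when divided by this marker sum was not counted. The Comb tumor with most T and NK cell marker RNA, replicate 3, had the lowest ratio of its group.

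Ifngr1, the ligand-binding chain, was at 55.9, 39 and 47.8 CPM in Con and at 54.4, 49.2 and 51.3 CPM in SFIH. In PD it was at 47.4, 82.9 and 60 CPM. In Comb it was at 61.4, 134 and 303 CPM, and all 3 Comb tumors were above all Con and all SFIH tumors. The log2 fold change from Con was 1.8 in Comb (SE 0.46, adjusted p = 0.0671, edgeR; adjusted p = 0.00275, DESeq2). It was 1.03 without Comb replicate 3 (SE 0.3, adjusted p = 0.12, edgeR) and 2.2 without Comb replicate 1 (adjusted p = 0.00361, edgeR). Against PD, the Comb tumors were higher by 1.39 (SE 0.45, adjusted p = 0.243, edgeR), or by 1.79 without Comb replicate 1 (adjusted p = 0.0235, edgeR) and by 0.62 without Comb replicate 3. In the edgeR fit without Comb replicate 1, 3943 of 13856 genes passed in Comb against Con and 2100 in Comb against PD. PD and SFIH gave 0.41 (SE 0.45) and 0.12 (SE 0.44) against Con, and over the alternative settings the value in PD ranged from 0.18 to 0.58.

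Ifngr2, the signal-coupling chain, was present at lower levels, with 15.8, 20.8 and 24.6 CPM in Con and 27.4, 30.1 and 24.7 CPM in SFIH. PD tumors had 25.6, 34.1 and 24.9 CPM and Comb tumors 27.5, 31.2 and 113 CPM. Every treated tumor was above every Con tumor, but the lowest SFIH tumor (24.7 CPM) and the lowest PD tumor (24.9 CPM) lay close to Con replicate 3 (24.6 CPM). Without TMM scaling SFIH and PD overlapped with Con, and Comb replicate 2 (27.537 CPM) was level with Con replicate 3 (27.5357 CPM). A single tumor, Comb replicate 3, set the size of the difference in Comb: the log2 fold change was 1.49 with it (SE 0.46, adjusted p = 0.0876, edgeR; adjusted p = 0.0191, DESeq2) and 0.52 without it (SE 0.21, adjusted p = 0.22, edgeR). Without Comb replicate 1 it was 1.82 (adjusted p = 0.0123, edgeR), in a fit where 3943 of 13856 genes passed. Ifngr1 exceeded Ifngr2 by 1.63-fold to 4.28-fold in the 12 tumors, and this ratio overlapped between Con and each treated group.

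Macrophage and leukocyte markers were highest in the same tumors as Ifngr1. The summed level of 12 such markers was 699 to 1223 CPM in Con tumors, 1178 to 1361 in SFIH tumors and 1323 to 2641 in PD. In the Comb tumors it was 1421, 4890 and 17158 CPM, and the Comb tumor highest in these markers was also the highest in Ifngr1 and Ifngr2. Skeletal muscle markers were at 926 and 8592 CPM in Comb replicates 1 and 3, at 208 CPM in PD replicate 1 and between 14.5 and 67.7 CPM in the other tumors. The part of these cell types in the Ifng, Ifngr1 and Ifngr2 results was not tested.

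**Figure D2:**
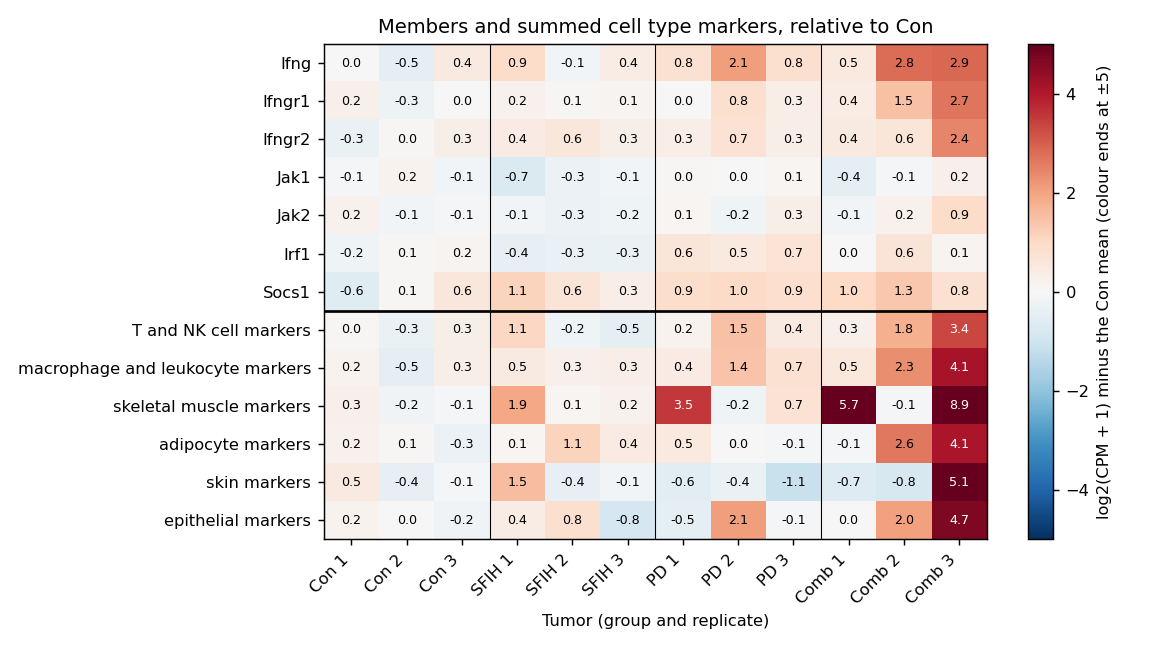
Levels of the 7 members (upper rows) and summed cell type markers (lower rows) in each of the 12 tumors, as log2(CPM + 1) minus the Con mean. Comb replicates 2 and 3 are high in Ifng, Ifngr1 and the macrophage markers, both are high in fat markers, and Comb replicate 3 is also high in muscle, skin and epithelial markers.

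Jak1, the kinase bound to IFNGR1 and shared with many cytokine receptors, varied little, by 1.95-fold over all tumors. Its level was 418, 501 and 402 CPM in Con tumors, 266, 360 and 401 in SFIH tumors, 453, 434 and 472 in PD tumors, and 322, 421 and 518 in Comb. All SFIH tumors were below all Con tumors, with 401 against 402 CPM for the nearest pair. The log2 fold change in SFIH was -0.36 (SE 0.21, adjusted p = 0.9998, edgeR), and in PD and Comb it was 0.04 (-0.05 without TMM scaling) and -0.07 with an SE of 0.21 each. In Comb it was -0.36 without TMM scaling and -0.25 without Comb replicate 3.

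Jak2, the kinase bound to IFNGR2, was less abundant, so that Jak1 exceeded it 8.54-fold to 17.2-fold. It was at 37.5, 29.1 and 30.2 CPM in Con tumors, 28.8, 25.9 and 27.1 in SFIH tumors, 34.5, 27.8 and 39.9 in PD tumors, and 29.3, 37.6 and 60.6 in Comb. SFIH tumors lay just below Con tumors (without TMM scaling they overlapped), and PD and Comb tumors overlapped with Con. Its log2 fold change was -0.24 in SFIH (SE 0.26), 0.08 in PD (SE 0.26, or -0.0054 without TMM scaling) and 0.4 in Comb (SE 0.26, adjusted p = 0.34, edgeR), and in Comb it was 0.05 without replicate 3 and 0.09 without TMM scaling.

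Of the other Janus kinases, Tyk2, used by type I interferon and interleukin-12 receptors, was at 4.46 to 6.67 CPM in Con and 6.99 to 19.8 in Comb (log2 fold change 1.18, SE 0.4, adjusted p = 0.104 with edgeR and 0.0344 with DESeq2). Its highest value was that of Comb replicate 3, and without this tumor the log2 fold change was 0.72 (SE 0.34, adjusted p = 0.288 with edgeR and 0.273 with DESeq2). Jak3, found mainly in lymphocytes, gave -0.38 in Comb (SE 0.35), or -0.6 without Comb replicate 3. Ptpn2, a phosphatase that removes activating phosphate from JAK1, gave -0.19 in Comb (-0.13 without Comb replicate 3) and -0.01 in PD (SE 0.17 each).

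**Figure D3:**
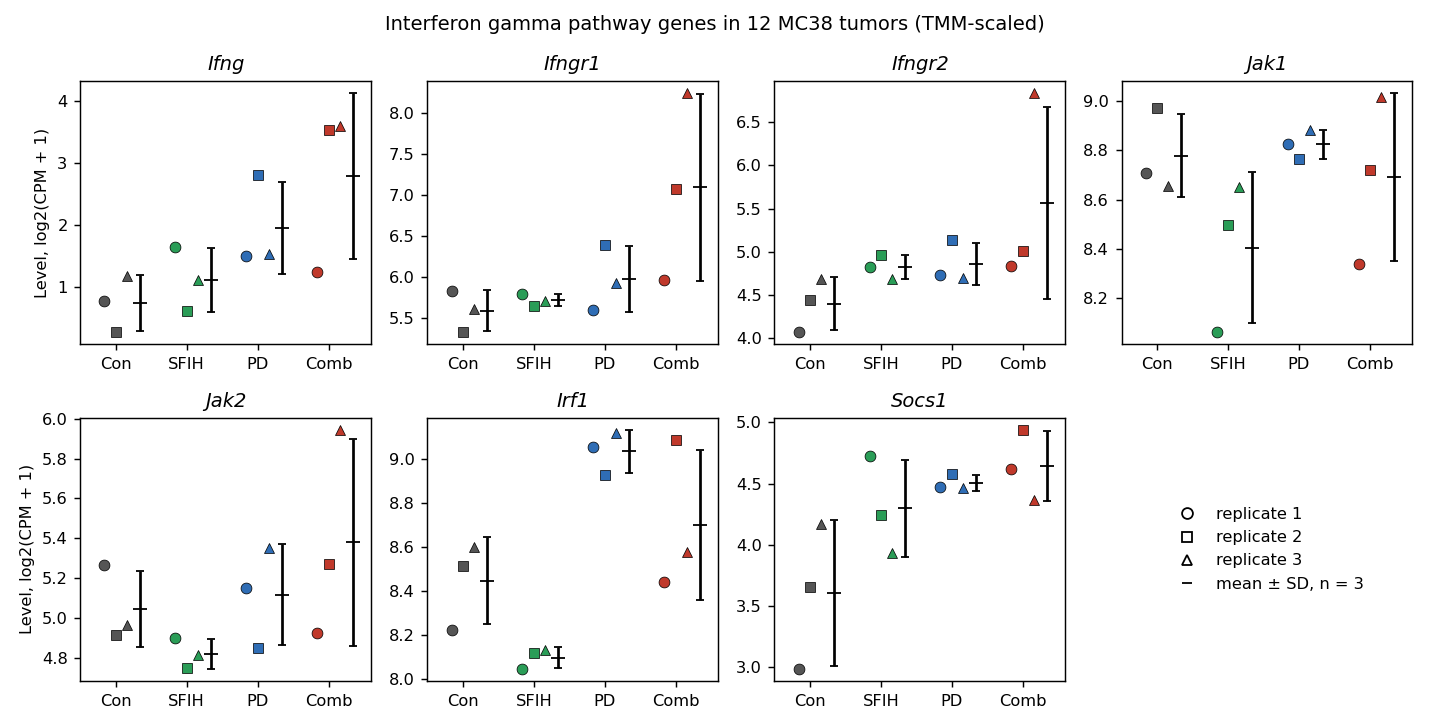
Level of each member as log2(CPM + 1) in every tumor, by group, with marker shapes for the replicates and black bars for the mean ± SD of 3 tumors. The group mean of Irf1 is highest in PD and lowest in SFIH, with Comb replicate 2 among the PD tumors, while Ifng and Ifngr1 are highest in Comb replicates 2 and 3.

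Irf1, the GAS-driven transcription factor, followed another order than the ligand. It was at 298, 364 and 388 CPM in Con and at 263, 276 and 279 CPM in SFIH tumors, all below Con. PD tumors had 532, 486 and 556 CPM, all above Con, and Comb tumors had 346, 543 and 381 CPM, within or above the range of Con. Group means were thus highest in PD (525 ± 35.6 CPM, SD, n = 3), followed by Comb (423 ± 105), Con (350 ± 46.5) and SFIH (273 ± 8.6), where PD and Comb overlapped and Comb and Con overlapped. The log2 fold change from Con was 0.58 in PD (SE 0.19), -0.36 in SFIH (SE 0.19) and 0.27 in Comb (SE 0.19), with adjusted p-values of 0.9998, 0.9998 and 0.378 from edgeR. The place of Comb above Con rested on the scaling, since the log2 fold change in Comb was 0.0013 without TMM scaling, and it was 0.34 without Comb replicate 3.

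Irf1 was the member with the smallest p for anti-PD-1 averaged over tumors with and without SFIH. All PD tumors were above all Con tumors, which held for 9.42% of all genes. All Comb tumors were above all SFIH tumors, and the share of genes with this or with both separations was not counted. Without TMM scaling Comb replicate 3, at 288 CPM, overlapped with SFIH. The log2 fold change of Irf1 was 0.61 (SE 0.14, adjusted p = 0.0973, edgeR; adjusted p = 0.000557, DESeq2). By p it ranked 131 of the 13464 genes. In an exact permutation test of log2(CPM + 1), with 6 tumors against 6 permuted within tumors with and without SFIH, the difference was 0.6 (two-sided p = 0.005, the smallest that 400 arrangements allow), and without TMM scaling it was 0.41 (exact permutation p = 0.02). In the same exact permutation test p was 0.02 for Ifng, Ifngr1 and Ifngr2, 0.025 for Socs1, 0.115 for Jak2 and 0.28 for Jak1, and without TMM scaling it was 0.165 for Ifngr2 and 0.14 for Socs1. Without Comb replicate 3 the level difference of Ifngr2 went from 0.6 to 0.28 (exact permutation p = 0.05) and its fitted change from 0.76 to 0.28 (adjusted p = 0.312, edgeR). For Irf1, without Comb replicate 3 the fitted change was 0.64 (adjusted p = 0.065, edgeR). Without Comb replicate 1 it was 0.67 (adjusted p = 0.0101, edgeR), in a fit where 2370 of 13856 genes passed.

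Socs1, the feedback inhibitor, was at 6.93, 11.6 and 17 CPM in Con tumors, 25.4, 17.9 and 14.3 in SFIH tumors, 21.1, 22.9 and 21.1 in PD tumors, and 23.6, 29.7 and 19.6 in Comb. All PD and Comb tumors were above all Con tumors (without TMM scaling, Comb and Con overlapped), and the SFIH tumors overlapped with Con. Its log2 fold change was 1.03 in Comb (SE 0.33, adjusted p = 0.0899, edgeR; adjusted p = 0.0226, DESeq2), 0.87 in PD (SE 0.33) and 0.69 in SFIH (SE 0.32). Without Comb replicate 3 it was 1.16 in Comb (adjusted p = 0.117, edgeR), so this difference was as large without the tumor that stood apart. In SFIH the target genes therefore stood differently towards Con, with Irf1 below it in all tumors and Socs1 overlapping with it.

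**Figure D4:**
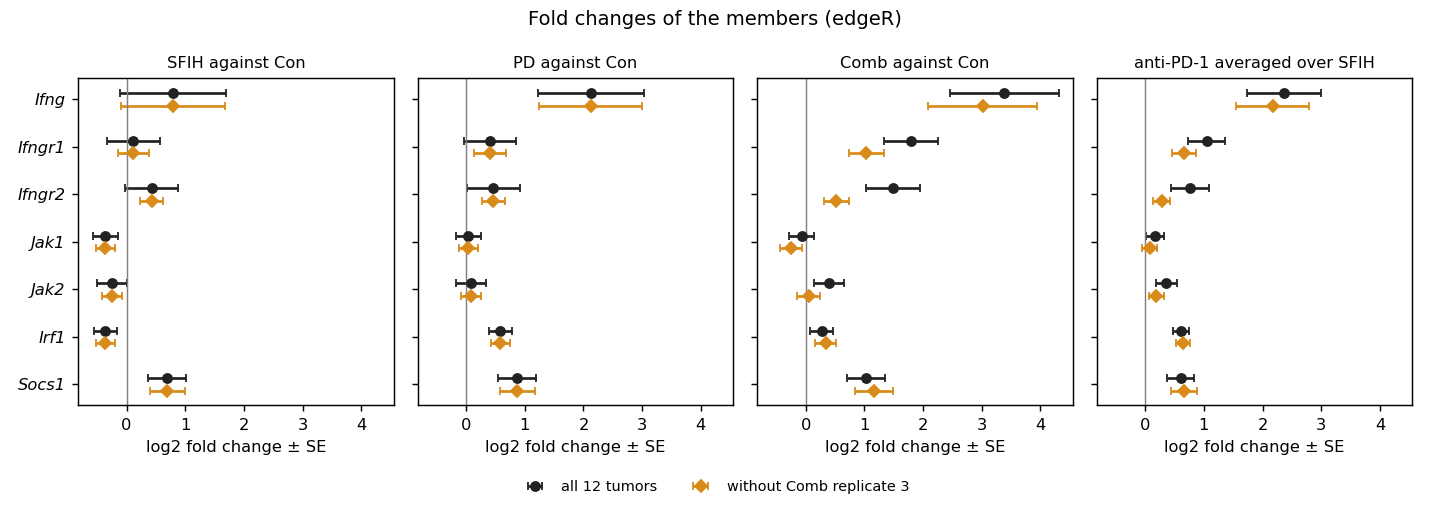
Fitted log2 fold changes ± SE of the 7 members in 4 comparisons, with all 12 tumors (black circles) and without Comb replicate 3 (orange diamonds). Leaving out that tumor moves Ifngr2 in Comb from 1.49 to 0.52 and leaves Irf1 and Socs1 nearly in place.

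No member passed the edgeR threshold (adjusted p under 0.05) in any of the 6 comparisons, and neither did any other gene, so that the background was 0% in each. In Comb against Con, 4 of 7 members (Ifng, Ifngr1, Ifngr2 and Socs1) had an unadjusted p under 0.05, beside 25.3% of all genes, and the same 4 passed with DESeq2, beside 14.9% of all genes. For anti-PD-1 averaged over SFIH, 5 members (these 4 and Irf1) had an unadjusted p under 0.05, beside 18.7% of all genes, and 3 (Ifng, Ifngr1 and Irf1) passed with DESeq2, beside 9.31%. In PD against Con, 3 members (Ifng, Irf1 and Socs1) had an unadjusted p under 0.05, beside 3.99%, and 0 passed with DESeq2, beside 0.0447%. Comb against PD gave 2 members (Ifngr1 and Ifngr2), beside 18%, and 0 with DESeq2, beside 3.09%. This comparison gave 0 unadjusted without Comb replicate 3, beside 9.02%. SFIH against Con gave 0 members by either measure, beside 2.25% unadjusted and 0.0298% with DESeq2. Without Comb replicate 3, which enters the shared estimate of the spread, 4 members had an unadjusted p under 0.05 in SFIH (Ifngr2, Jak1, Irf1 and Socs1, beside 7.49% of genes), 4 in PD (beside 10.7%), 4 in Comb against Con (beside 18.8%) and 4 for anti-PD-1 (beside 19.5%), where Ifngr2 was no longer among them.

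The test of whether the anti-PD-1 difference itself varied with SFIH (the interaction term) also gave 0 members, beside 2.55% of genes unadjusted and 0.00745% with DESeq2. The smallest of its p-values was that of Ifngr1 (log2 difference 1.27, SE 0.63, adjusted p = 0.894, edgeR), which was 0.5 without Comb replicate 3. Groups that did not overlap were also counted. In Comb, 4 members (Ifng, Ifngr1, Ifngr2 and Socs1) were above Con in all tumors, beside 11.7% of all genes. In PD the members above Con in all tumors were Ifng, Ifngr2, Irf1 and Socs1, beside 9.42% of genes. In SFIH, 1 member (Ifngr2) lay above, beside 8.55%, and 3 (Jak1, Jak2 and Irf1) lay below, beside 8.86%. Between Comb and PD, 0 members were apart in either direction, beside 6.16% above and 8.1% below. Without TMM scaling, members above Con in all tumors numbered 2 in Comb (Ifngr1 and Ifngr2, beside 7.6% of genes), 3 in PD (Ifng, Irf1 and Socs1, beside 5.76%) and 0 in SFIH (beside 7.55%). For Ifngr2 in Comb this rested on 27.537 against 27.5357 CPM. On that scale 2 members (Jak1 and Irf1) were below Con in SFIH, beside 8.85%, and Jak1 was below Con and below PD in all Comb tumors, beside 22.2% and 8.42% of genes.

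The median log2 fold change of the 7 members was 1.03 in Comb, 0.47 in PD tumors and 0.12 in SFIH against Con, beside medians over all genes of -0.03, 0.01 and 0.02. The median in Comb was 0.52 without Comb replicate 3. These comparisons share the Con tumors, so their values are set side by side and not counted as separate evidence. Between Comb and PD the median was 0.32, beside 0 (to 2 decimals) for all genes, and 0.06 without Comb replicate 3.

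Further genes of the pathway were taken from lists written from general knowledge, and in every list 0 genes passed with edgeR. Their counts in Comb against Con stand beside 25.3% of all genes with an unadjusted p under 0.05 and 14.9% with DESeq2, or 18.8% unadjusted without Comb replicate 3. Among 38 genes that interferon gamma induces (chemokines, antigen presentation, guanylate-binding proteins and others), 18 had an unadjusted p under 0.05 in Comb against Con and 13 passed with DESeq2, all of them higher, with a median log2 fold change of 0.65. In PD against Con 9 had an unadjusted p under 0.05, beside 3.99% of all genes, also all higher, with a median of 0.43. In SFIH 1 did, beside 2.25%, with a median of 0.11. For anti-PD-1 averaged over SFIH, 18 had an unadjusted p under 0.05, beside 18.7% of all genes, and 15 passed with DESeq2, beside 9.31%. Without Comb replicate 3, 24 of the 38 had an unadjusted p under 0.05 in Comb against Con, with a median of 0.71. Their summed level was 12881 to 15157 CPM in Con tumors, 14241 to 15268 in SFIH tumors, 16975 to 20209 in PD tumors. In the Comb tumors it was 16894, 28047 and 63734 CPM. In Comb replicate 3, the tumor with macrophage markers at 17158 CPM, B2m (20657 CPM), H2-Aa (10889 CPM) and Cd74 (10025 CPM), all of them genes of antigen presentation, made up most of the sum.

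The signal relay (20 genes, among them phosphatases and other feedback genes) had its median near that of all genes in Comb against Con (0 to 2 decimals), with 5 higher and 2 lower at an unadjusted p under 0.05 and 4 and 1 with DESeq2, or 3 and 1 unadjusted without Comb replicate 3. Of 20 genes that drive the production of interferon gamma, 15 were tested, and 5 were higher at an unadjusted p under 0.05 in Comb, and 4 passed with DESeq2. Without Comb replicate 3, 16 were tested, and 7 were higher and 1 lower at an unadjusted p under 0.05. Il12a, a subunit of interleukin-12, was at 0 in all Con, PD and Comb tumors. Of 14 related receptor chains and kinases, 13 were tested, and 10 were higher and 1 lower at an unadjusted p under 0.05 in Comb, with a median of 1.18 that was 0.72 without Comb replicate 3. In the SOCS and IRF families (15 genes), 6 were higher in Comb at an unadjusted p under 0.05 and 5 passed with DESeq2, which became 3 at an unadjusted p under 0.05 without Comb replicate 3.

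Genes whose pattern was most like that of Ifng were ranked by Pearson correlation of log2(CPM + 1) over the 12 tumors and the first 5 with at least 50 counts on average were taken. These were Entpd1, an ectonucleotidase (r = 0.98), Hpgds, a prostaglandin D synthase (0.97), Lyn, a myeloid and B cell kinase (0.97), Fcgr4, an Fc receptor (0.97), and Cxcr6, a chemokine receptor of T cells (0.97). With group means removed, r was between 0.94 and 0.96 for these genes, and without Comb replicate 3 between 0.96 and 0.97. Among the members, Ifngr1 was most like Ifng (r = 0.89, rank 375 of the 13463 other genes tested, whatever their counts), followed by Ifngr2 (0.73), Socs1 (0.6), Jak2 (0.6), Irf1 (0.5) and Jak1 (0.22). With group means removed r was 0.82 for Ifngr1, 0.53 for Ifngr2, 0.22 for Socs1, 0.41 for Jak2, 0.32 for Irf1 and 0.23 for Jak1. When Comb replicate 3 was left out it was 0.92, 0.64, 0.69, 0.3, 0.6 and 0 (to 2 decimals) in the same order. The tumors share groups and differ in tissue content, as the marker sums show, so these values describe the 12 libraries.

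**Figure D5:**
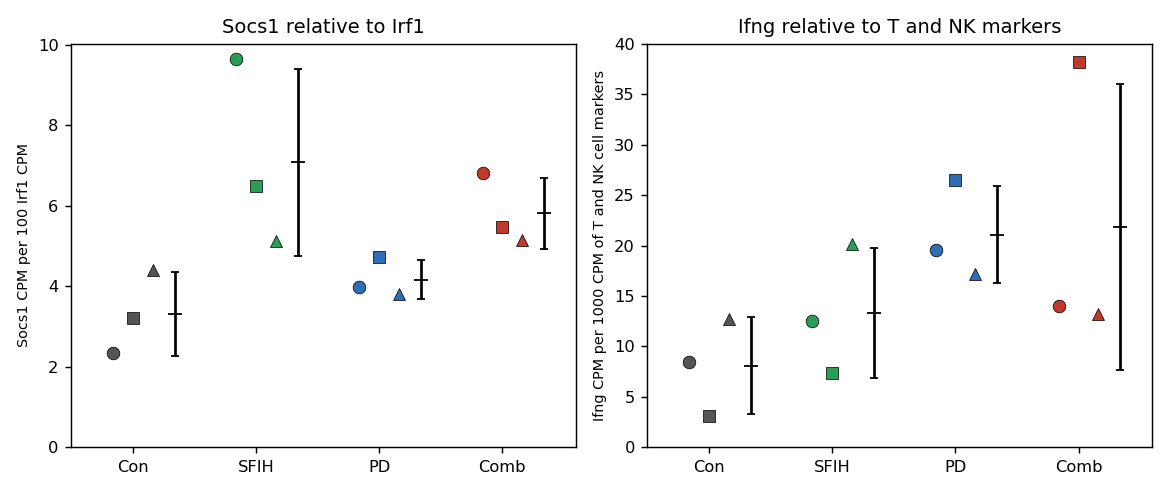
Socs1 CPM per 100 CPM of Irf1 (left) and Ifng CPM per 1000 CPM of T and NK cell markers (right) in each tumor, with the mean ± SD of 3 tumors. The 6 tumors given SFIH have Socs1 ratios of 5.12 to 9.66 and the other 6 have ratios of 2.33 to 4.72, and the PD and Comb tumors have higher Ifng ratios than Con.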

How the data were processed

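The authors deposited raw read counts per gene symbol for 12 tumors, 3 in each of 4 groups, made from QuantSeq 3′ mRNA-Seq libraries, and group and replicate were taken from the labels and column names. The aligner, counter and genome build are not given in the sources used here. The counts were filtered with filterByExpr (13464 genes), scaled by TMM and compared with the quasi-likelihood test of edgeR 4.0.16 (R 4.3.3) in a single fit of 12 tumors, two-sided, with Benjamini-Hochberg adjustment over all genes and a threshold of 0.05. Alternatives were DESeq2 1.42.0, no TMM, no filter or a mean of at least 50 counts, a replicate block, and each tumor left out. Levels are log2(CPM + 1) with exact permutation tests. Depth was 7870741 to 12261032 counts, and counting error is a lower limit. The steps were tested on simulated data. All 7 members were named, with Ptpn2, Tyk2 and Jak3 (1 further gene of this rule is not reported here), list genes with an adjusted p under 0.05 (there were 0) and the 5 genes most like Ifng. Other genes that the text names were picked with their values in view. The members and lists were chosen with earlier results of these data known. Promoters were read from RefSeq (GRCm38.p6), where all 7 members matched.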

Additional observations from a re-analysis of the deposited data

How the results depend on the processing

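No member passed the edgeR test with all 12 tumors. The number that passed in Comb against Con was 4 with DESeq2, 3 with DESeq2 without Comb replicate 3 (beside 5.44% of all genes), and 0 to 3 with edgeR when each tumor was left out (3 without Comb replicate 1). For anti-PD-1 averaged over SFIH it was 3 with DESeq2, 3 with DESeq2 without Comb replicate 3 (beside 7.3%), and 0 to 4 with each tumor left out (4 without Comb replicate 1). In Comb against PD it was 0 to 1 with each tumor left out (1 without Comb replicate 1). Without Comb replicate 1, edgeR called 3943 of 13856 genes in Comb against Con, 2100 in Comb against PD and 2370 for anti-PD-1. Without Comb replicate 3 it called 5, 0 and 2 of 13621 genes. The cause was not tested. Of 680 alternative log2 fold changes, 636 kept their direction and their side of the threshold, 21 newly passed it and 23 changed sign. Without TMM, which moved the median of all genes in Comb against Con to -0.29, the sign changed for Jak1 (-0.051) and Jak2 (-0.0054) in PD against Con, for Jak1 with anti-PD-1 (-0.025, and -0.022 for its level) and for the interaction of Irf1 (-0.13). With a mean of at least 50 counts, Jak1 in Comb against Con was 0.012, and Ifng was not tested. With DESeq2 without Comb replicate 3, Jak2 in Comb against PD was -0.013 and the interaction of Ifngr2 was -0.35.

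With each tumor left out, values that changed sign ranged from -0.030 to 0.13 (Jak1, PD against Con), -0.061 to 0.21 (Jak2, PD against Con), -0.016 to 0.24 (Ifngr1, SFIH against Con), -0.25 to 0.095 (Jak1, Comb against Con), -0.29 to 0.065 (Jak1, Comb against PD), -0.028 to 0.54 (Jak2, Comb against PD) and -0.018 to 0.29 (Socs1, Comb against PD). The interaction ranged from -0.17 to 1.23 for Ifng, -0.18 to 0.20 for Irf1 and -0.37 to 0.95 for Ifngr2. Same-numbered tumors were correlated between -0.288 and 0.409. Differently numbered tumors were not compared with them, so this cannot show whether the numbers pair the tumors. With a replicate block 0 members passed (Ifng in Comb against Con, 3.27). Of 98 alternative level tests, 17 lost a p under 0.05, and those of Irf1 kept it.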

Other observations

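Il18r1, the interleukin-18 receptor chain through which T and NK cells are driven to make interferon gamma, had the smallest p of all 13464 genes for anti-PD-1 averaged over SFIH (chosen after its values were seen). It was at 0.877, 0.903 and 0.893 CPM in Con and 0.946, 0.669 and 1.25 CPM in SFIH. In PD it was at 3.42, 6.55 and 3.3 CPM and in Comb at 2.82, 7.37 and 11.2 CPM, so that all 6 tumors given the antibody were above all 6 others. The same separation was found in 1.12% of all genes tested. Il18rap, the accessory chain of the same receptor, did not follow. It was at 38.1, 37.7 and 28.5 CPM in Con, 35.1, 38 and 34.1 in PD, and 40.1, 29 and 15.2 in Comb. Its log2 fold change from Con was 0.04 in PD and -0.31 in Comb (SE 0.3 each). The log2 fold change of Il18r1 for anti-PD-1 averaged over SFIH was 2.59 (SE 0.39). The gene was picked for its p, so no test is given.

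The ratio of Socs1 to Irf1, which does not depend on library scaling, was also looked at after the values were seen. Per 100 CPM of Irf1, Socs1 was at 2.33, 3.2 and 4.4 CPM in Con and 3.98, 4.72 and 3.79 CPM in PD, against 9.66, 6.48 and 5.12 CPM in SFIH and 6.82, 5.47 and 5.15 CPM in Comb. All 6 tumors given SFIH were above all 6 others, by 1.73-fold on average. The ratio was picked because it separated the tumors, so no test is given. Of all genes tested, 0.958% separated the tumors in the same direction when divided by Irf1, and Socs1 did so when divided by 0.267% of genes. Neither gene passed the edgeR test for SFIH against Con.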
